A study of Mus musculus with 18 samples.

Results

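The Fc receptors of microglia were followed through 6 genes: Fcgr1, Fcgr4, Fcgr3, Fcer1g, Fcgr2b and Fcgrt. They were chosen by gene name, with earlier results of these data known. All 6 were found once each among the 54532 genes of the count table, and all 6 were among the 13267 genes that passed the filter on low counts. Expression was measured by RNA sequencing of total RNA from primary mouse microglia, harvested from pups at postnatal day 0 to 3 and isolated after 10 days of mixed culture. The study asked how the R47H variant of Trem2, a receptor of microglia, changes these cells at rest and after exposure to tau fibrils, and what inhibition of the kinase AKT does to that response.

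There were 6 groups of 3 libraries. R47H/+ microglia (genotype label hTrem2 R47H/+, 1 R47H allele beside 1 wild-type allele) were pre-treated for 6 h with 1 uM MK-2206, an allosteric AKT inhibitor, and then given 1 ug/ml of 0N4R tau fibrils (R47H/+ MK-2206 tau). R47H/+ microglia were given tau after 0.01% DMSO vehicle (R47H/+ tau), and Trem2+/+ microglia (genotype label mTrem2 +/+) likewise (Trem2+/+ tau). The same R47H/+ cells were kept without tau after MK-2206 (R47H/+ MK-2206) or after vehicle (R47H/+), and Trem2+/+ cells without tau had vehicle (Trem2+/+). The labels do not say whether the 3 libraries of a group came from separate pups or cultures, so p-values measure the spread between these libraries only. No Trem2+/+ cells were given MK-2206 among the samples analysed here. The labels mark the R47H allele as human Trem2 and the Trem2+/+ alleles as mouse. No group carried a human allele without R47H, so the variant and the human sequence cannot be told apart.

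Receptors for the Fc part of IgG let microglia and other phagocytes take up antibody-coated material. The activating receptors encoded by mouse Fcgr1, Fcgr3 and Fcgr4 signal through a shared gamma chain, the product of Fcer1g, which carries an activation motif (ITAM) that recruits the kinase Syk. The inhibitory receptor encoded by Fcgr2b carries an inhibitory motif (ITIM) in its own tail that recruits phosphatases. Fcgrt encodes the neonatal Fc receptor, which with beta-2-microglobulin recycles IgG inside cells.

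The signalling ends of the pathway can be read in the coding sequence, which is shown because the levels below set activating against inhibitory receptors. The ITAM bases of Fcer1g encode positions 65 to 79 of its 86 residues, and the ITIM bases of Fcgr2b encode positions 317 to 322 of its 340 residues. Capitals mark the codons of the fixed positions of each motif, on GENCODE transcripts of GRCm38, both genes lying on chromosome 1.
Fcer1g ITAM: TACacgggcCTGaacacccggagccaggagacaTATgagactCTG
Fcgr2b ITIM: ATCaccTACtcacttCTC

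On GRCm38, 4 of the 6 genes lie close together on chromosome 1. Fcgr2b spans 170958617 to 170976547 on the minus strand, Fcgr4 171018920 to 171029761 on the plus strand, Fcgr3 171051174 to 171064935 on the minus strand and Fcer1g 171229572 to 171234365 on the minus strand. Fcgr1 lies on chromosome 3 (96282909 to 96293969, minus strand) and Fcgrt on chromosome 7 (45092990 to 45103851, minus strand). Fcgr3 and Fcgr2b are close copies in their extracellular part. Their coding sequences were identical at 87.5% of 785 aligned bases, with a longest identical run of 129 bases, while the other pairs of Fcgr genes were identical at 67.8% to 69.9%. Of the 100-base windows of Fcgr3 transcripts, 2.54% also occurred in Fcgr2b, and of the 150-base windows (the read length) none did. Reads from these stretches could be split between Fcgr3 and Fcgr2b, and how the authors counted them is not given in the sources used here. The gene models of Fcgr2b and Fcgrt overlap the antisense genes Gm38204 and Gm45669, and whether counting used strand is not given either, so reads of these pairs cannot be told apart; the antisense genes had 64 and 7 counts in all libraries together, against 177405 for Fcgr2b and 29044 for Fcgrt.

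Promoter sequence was taken from RefSeq (GRCm38.p6), which matched 6 of 6 genes, and is shown for the 3 activating receptor genes and Fcgr2b because their levels moved in different ways. Each stretch holds the 250 bases before the transcript start, 5′ to 3′ on the strand of the gene. Capitals mark 3 motifs searched on both strands: TTCNNNGAA (GAS, the gamma-activated site pattern), GAGGAA (a core of PU.1 sites, the factor encoded by Spi1) and ISRE, an interferon response pattern of GAAA, any pair of bases and GAAA again.
Fcgr1 (chr3:96293970-96294219, minus strand): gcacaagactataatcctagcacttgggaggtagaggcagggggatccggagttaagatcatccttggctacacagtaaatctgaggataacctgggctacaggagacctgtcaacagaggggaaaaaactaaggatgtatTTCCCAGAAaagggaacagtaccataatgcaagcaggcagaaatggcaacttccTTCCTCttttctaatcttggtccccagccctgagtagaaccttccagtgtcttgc
Fcgr4 (chr1:171018676-171018925, plus strand): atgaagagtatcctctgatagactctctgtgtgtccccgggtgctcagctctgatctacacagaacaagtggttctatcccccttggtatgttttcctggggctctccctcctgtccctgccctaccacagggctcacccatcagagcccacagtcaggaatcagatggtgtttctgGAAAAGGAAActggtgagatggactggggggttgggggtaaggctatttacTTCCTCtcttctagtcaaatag
Fcgr3 (chr1:171059404-171059653, minus strand): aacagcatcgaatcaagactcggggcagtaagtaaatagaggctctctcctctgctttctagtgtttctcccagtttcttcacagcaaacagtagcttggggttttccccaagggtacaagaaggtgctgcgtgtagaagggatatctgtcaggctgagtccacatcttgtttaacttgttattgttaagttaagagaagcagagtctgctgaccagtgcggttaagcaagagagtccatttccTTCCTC
Fcgr2b (chr1:170976072-170976321, minus strand): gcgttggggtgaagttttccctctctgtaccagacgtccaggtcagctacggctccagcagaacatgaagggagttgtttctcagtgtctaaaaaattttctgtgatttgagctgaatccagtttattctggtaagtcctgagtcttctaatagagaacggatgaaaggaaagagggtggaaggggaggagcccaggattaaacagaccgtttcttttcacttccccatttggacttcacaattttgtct

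The Fcgr1 stretch held a GAS pattern at bases -109 to -101 and a PU.1 pattern at -55 to -50 from the start. The Fcgr4 stretch held an ISRE pattern at -73 to -64 and a PU.1 pattern at -22 to -17, and the Fcgr3 stretch held a PU.1 pattern at -6 to -1. Fcgr2b, Fcer1g and Fcgrt held none of the 3 in their windows, and no matches overlapped. Among 32851 RefSeq mouse promoter windows of the same kind (250 bases before to 50 after the start), 8.3% held GAS, 28.3% the PU.1 core and 3.44% ISRE. Fcgr3 had 2 promoters in the table, of which the first is shown.

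**Figure D1:**
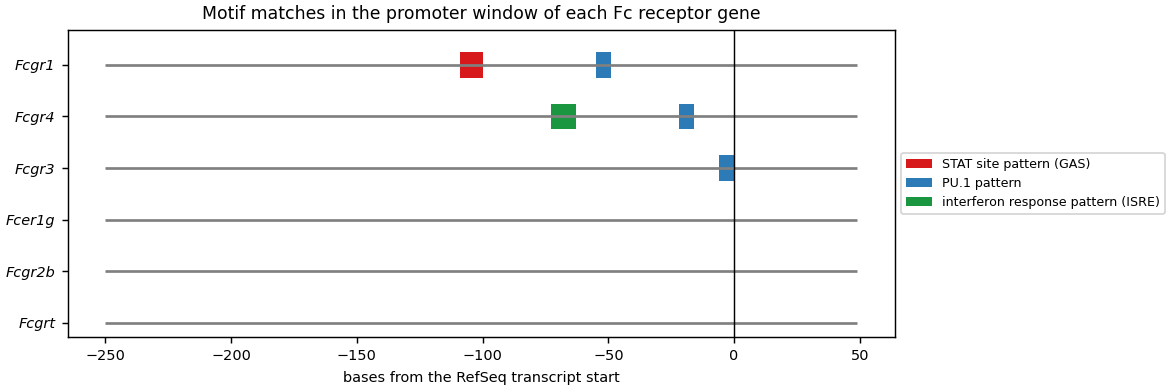
Motif matches in the promoter window of each gene, drawn along the distance in bases from the RefSeq transcript start (vertical line). Coloured blocks are matches to the GAS (red), PU.1 (blue) and ISRE (green) patterns, seen in Fcgr1, Fcgr4 and Fcgr3 and not in the windows of Fcer1g, Fcgr2b and Fcgrt.

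Libraries held 16288531 to 20686299 counts, and the 6 genes had 1009 to 37551 counts per library. The SD within a group ran from 0.361% of the mean (Fcgr1 in R47H/+ MK-2206 tau) to 49.3% (Fcgrt in Trem2+/+), so counting error was not small beside it everywhere. Trem2 itself averaged 175 CPM (counts scaled to library size after TMM normalization) in R47H/+ tau and 442 CPM in Trem2+/+ tau libraries, and 465 CPM in R47H/+ and 1258 CPM in Trem2+/+ libraries, with no overlap in either pair; how reads of a human Trem2 sequence were counted is not given in the sources used here. In 2 libraries expression shifted with gene length. The slopes of Trem2+/+ replicate 3 and R47H/+ tau replicate 2 were -1.39 and -0.73 log2 CPM per 10-fold of gene length, against -0.17 to 0.14 in the other 16. Trem2 had 1894 CPM in the first, beside 945 and 935 CPM in the other Trem2+/+ libraries. It had 243 CPM in the second, beside 128 and 155 CPM in the other R47H/+ tau libraries. Short transcripts such as Fcer1g were high in both, so tests are given with all 18 libraries. For the 6 genes and the list counts they are also given without these 2, called the length-shifted libraries. Which libraries to leave out was decided from these data. Leaving them out leaves 2 libraries in Trem2+/+ and 2 in R47H/+ tau. The microglia markers (9 of 9 genes with counts) summed to 3500.4 to 4549.7 CPM in all groups, led by Csf1r, with Tmem119 at 0.312 to 2.53 CPM and P2ry12 at 7.64 to 43.8 CPM. Some lists of other cells that carry Fc receptors stayed low, but not all. B cells summed to at most 1.03 CPM and NK and T cells to at most 0.81 CPM. Mast cells and basophils summed to at most 0.864 CPM. Cd3e, Nkg7 and Fcer1a were at 0. The monocyte and border macrophage list did not stay low. In the neutrophil list Ly6g and S100a9 were at 0, but S100a8 had counts in all groups. Both of these lists are given below.

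Other marker lists moved with the groups. The monocyte and border macrophage list (7 of 7 genes with counts, led by Mrc1 and Pf4) summed to 566 to 617 CPM in R47H/+ MK-2206 tau, 533 to 640.1 in R47H/+ tau, 695 to 746 in Trem2+/+ tau, 733 to 745 in R47H/+ MK-2206, 650.2 to 719 in R47H/+ and 771 to 1315 in Trem2+/+ libraries. Its members did not move together. Mean Mrc1 and Pf4 were lower with tau in each setting, and Ccr2 went both ways. Ly6c2 averaged 119, 177 and 146 CPM in R47H/+ MK-2206 tau, R47H/+ tau and Trem2+/+ tau. Without tau it averaged 4.01 CPM in R47H/+ MK-2206, 12.3 in R47H/+ and 4.66 in Trem2+/+. Cd163, Plac8 and Lyve1 had at most 0.728 CPM in any library. The neutrophil list (2 of 5 genes with counts, mostly S100a8) summed to 3.61 to 5.86, 5.26 to 12.2, 11.9 to 14.1, 0.985 to 1.77, 1.70 to 1.85 and 2.65 to 13.4 CPM in the same order of groups. The endothelium and fibroblast list (5 of 6 genes, mostly Kdr) was at 97.5 to 103 CPM in R47H/+ MK-2206 tau and 4.99 to 12.7 CPM in Trem2+/+ libraries, with the other groups at 25.5 to 93.4. Astrocyte markers (8 of 8) summed to 54.1 to 107 CPM over all groups. They were led by Aldh1l1, Fabp7 and Aldoc, and the others had at most 3.27 CPM in any library. Oligodendrocyte lineage markers (7 of 7) summed to 67.3 to 179 CPM over all groups. Dendritic cell markers (5 of 5) summed to 2.16 to 8.09 CPM and neuron markers (6 of 6) to 1.55 to 4.32 CPM. Their part in the results below was not tested. In bulk RNA, fewer cells of a type and less RNA per cell cannot be told apart.

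Per length (CPM per kilobase of the deposited gene length), Fcer1g was the highest of the 6 genes in all 6 groups, with means from 733 in R47H/+ MK-2206 to 1559.8 in R47H/+ tau. Fcgrt was the lowest in all 6, at 33.3 to 57.8. Between them, the order of the Fcgr genes changed with the group. Fcgr1 was the highest Fcgr gene per length in the 3 groups with tau, at 546 in R47H/+ MK-2206 tau, 698 in R47H/+ tau and 393 in Trem2+/+ tau. Fcgr3 was the highest Fcgr gene in the 3 groups without tau, at 582 in R47H/+ MK-2206, 328 in R47H/+ and 389.5 in Trem2+/+. In CPM, the highest group mean was 7.81 times the lowest for Fcgr1, 6.73 times for Fcgr4, 4.67 times for Fcgr3, 2.35 times for Fcgr2b, 2.13 times for Fcer1g and 1.74 times for Fcgrt.

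Fcgr1, the gene of the high-affinity IgG receptor, had 1412, 1420.1 and 1410.4 CPM in R47H/+ MK-2206 tau, 1602, 2155 and 1662 CPM in R47H/+ tau, and 989, 1117 and 948 CPM in Trem2+/+ tau libraries. Without tau it had 419.6, 427 and 453 CPM in R47H/+ MK-2206, 701, 629.8 and 614 CPM in R47H/+, and 192, 214 and 288 CPM in Trem2+/+ libraries. Every library with tau was above every library without it. The order of groups from high to low was R47H/+ tau, R47H/+ MK-2206 tau, Trem2+/+ tau, R47H/+, R47H/+ MK-2206 and Trem2+/+, and no neighbours in it overlapped.

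Fcgr4, the gene of an activating receptor for IgG2 subclasses in mice, had 565, 584 and 596 CPM in R47H/+ MK-2206 tau, 565, 786 and 547 CPM in R47H/+ tau, and 342, 390.0 and 354 CPM in Trem2+/+ tau libraries. Without tau it had 246, 238 and 242 CPM in R47H/+ MK-2206, 242, 229.7 and 242 CPM in R47H/+, and 78.1, 79.1 and 125 CPM in Trem2+/+ libraries. Again every library with tau lay above every library without it. Within each tau state the R47H/+ groups, with and without MK-2206, overlapped each other and lay above Trem2+/+.

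Fcgr3, the gene of the low-affinity activating receptor, ran the other way. It had 435, 434 and 457 CPM in R47H/+ MK-2206 tau, 186, 268 and 196 CPM in R47H/+ tau, and 241, 239 and 256 CPM in Trem2+/+ tau libraries. Without tau it had 999, 1033 and 1001 CPM in R47H/+ MK-2206, 552, 563 and 592 CPM in R47H/+, and 593, 575 and 860.3 CPM in Trem2+/+ libraries. Every library with tau was below every library without it, and the MK-2206 groups were the highest of their tau state; R47H/+ and Trem2+/+ overlapped in both states.

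Fcgr2b, the inhibitory receptor gene, had 618, 596 and 605 CPM in R47H/+ MK-2206 tau, 389, 369.7 and 393 CPM in R47H/+ tau, and 369.5, 369.6 and 365 CPM in Trem2+/+ tau libraries. Without tau it had 864, 856 and 872 CPM in R47H/+ MK-2206, 595, 602 and 568 CPM in R47H/+, and 459.8, 438 and 429 CPM in Trem2+/+ libraries. It varied little within groups, and R47H/+ MK-2206 was above every other library. Only R47H/+ MK-2206 tau and R47H/+ overlapped among neighbours in the order of levels.

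Fcer1g, the shared gamma chain, had 1282, 1110.1 and 1126 CPM in R47H/+ MK-2206 tau, 1157, 1772 and 1161 CPM in R47H/+ tau, and 926, 1066 and 889.9 CPM in Trem2+/+ tau libraries. Without tau it had 645, 623 and 656 CPM in R47H/+ MK-2206, 696, 696 and 689.7 CPM in R47H/+, and 471, 522 and 1081 CPM in Trem2+/+ libraries. The 1772 and 1081 CPM values belong to the 2 length-shifted libraries; apart from these, every library with tau was above every library without it. Fcgrt stayed between 60.1 and 108 CPM in 17 libraries and reached 190.5 CPM in the length-shifted Trem2+/+ replicate 3, with all neighbouring groups overlapping.

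**Figure D2:**
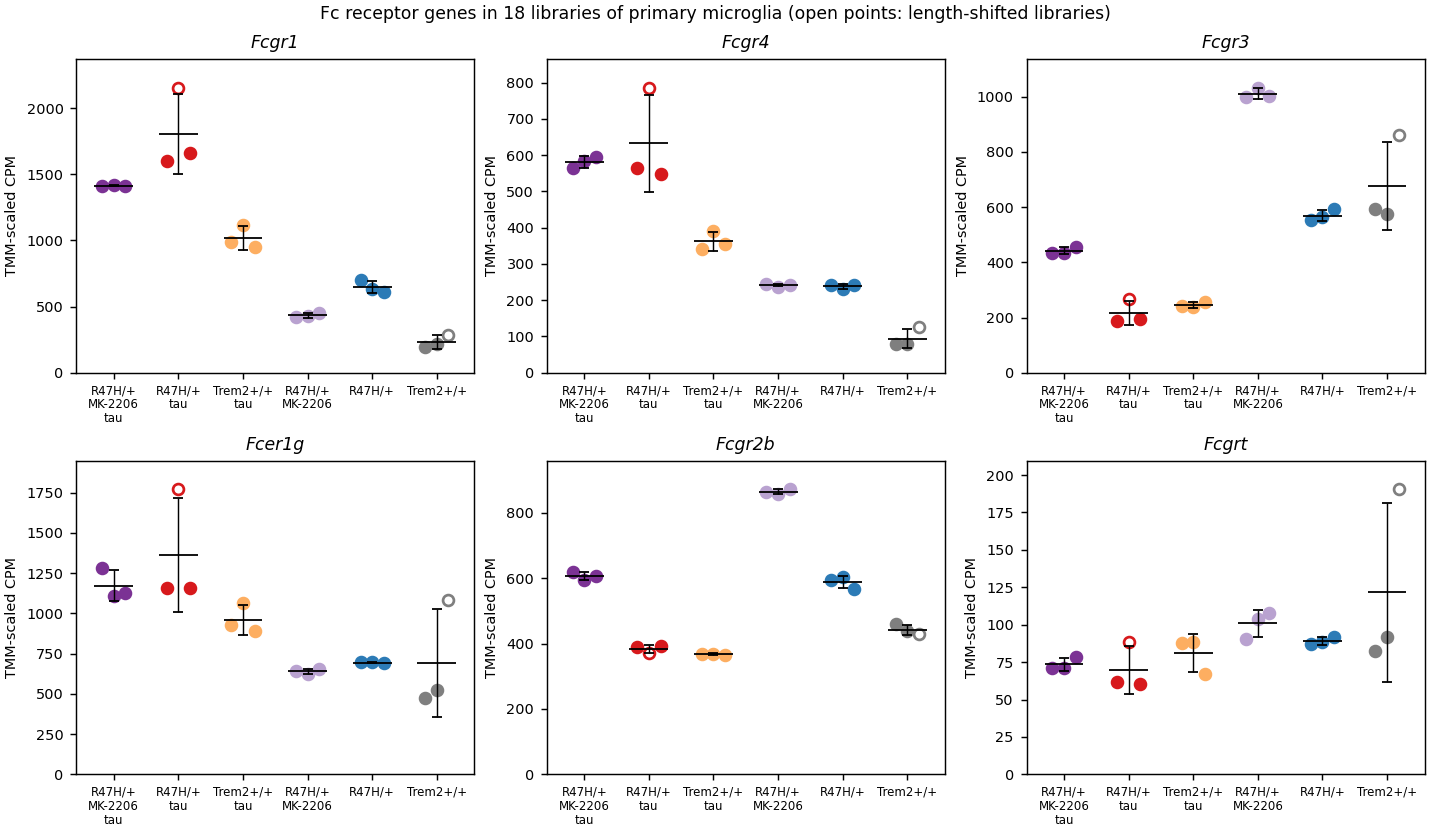
TMM-scaled CPM of the 6 genes (1 panel each, linear axis from 0) in the 18 libraries, by group; points are libraries, bars the mean and SD of 3, open points the 2 length-shifted libraries. Fcgr1 and Fcgr4 are highest in the 3 tau groups, Fcgr3 and Fcgr2b are highest in R47H/+ MK-2206, and the spread of Fcer1g and Fcgrt in Trem2+/+ comes from 1 open point.

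Tau fibrils moved the Fc receptor genes in opposite directions. In Trem2+/+ microglia Fcgr1 rose 4.41-fold (log2 change 2.14, SE 0.149, adjusted p = 1.71e-08) and Fcgr4 rose 3.85-fold (log2 change 1.95, SE 0.169, adjusted p = 2.31e-07), by edgeR's quasi-likelihood test with Benjamini-Hochberg adjustment over 13267 genes, as for every adjusted p below. Fcgr3 fell by 1.46 on the log2 scale (SE 0.152, adjusted p = 1.80e-06), which is 2.75-fold, and Fcgr2b by 0.26 (SE 0.0766, adjusted p = 0.0175). Fcer1g and Fcgrt did not pass the test, with log2 changes of 0.47 (95% interval -0.04 to 0.98, adjusted p = 0.159) and -0.58 (-1.10 to -0.06, adjusted p = 0.0905). Thus 2 of 6 rose and 2 fell, where 14.4% of all genes rose and 12.1% fell.

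The smaller change of Fcgr2b in Trem2+/+ did not hold under all settings: its adjusted p was 0.272 with no count filter (edgeR), 0.274 with the 2 groups fitted alone, and 0.0502 to 0.0547 when any of the Trem2+/+ tau libraries was left out. Fcgrt was called lower without Trem2+/+ replicate 1 (-0.80, adjusted p = 0.0187, edgeR) or replicate 2 (-0.75, adjusted p = 0.0377), both of which leave in the high replicate 3. Without both length-shifted libraries it was at -0.12 and not called (adjusted p = 0.387, edgeR), with means of 81.1 CPM in Trem2+/+ tau and 87.1 CPM in Trem2+/+ libraries. Of the 6 genes, 5 were then called, against 41.4% of all genes, with log2 changes of 2.31 for Fcgr1, 2.19 for Fcgr4, 0.94 for Fcer1g (adjusted p = 2.09e-09, edgeR), -1.26 for Fcgr3 and -0.30 for Fcgr2b.

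In R47H/+ microglia tau raised Fcgr1 2.79-fold (log2 change 1.48, SE 0.146, adjusted p = 1.25e-06, edgeR), Fcgr4 2.66-fold (1.41, SE 0.166, adjusted p = 8.22e-06) and Fcer1g 1.96-fold (0.97, SE 0.242, adjusted p = 0.00636). Fcgr3 fell by 1.39 (SE 0.152, adjusted p = 3.48e-06) and Fcgr2b by 0.62 (SE 0.0768, adjusted p = 1.44e-05) on the log2 scale. Fcgrt had a log2 change of -0.35 (95% interval -0.87 to 0.17, adjusted p = 0.321). That is 3 higher and 2 lower of 6, beside 15% and 12.6% of all genes. With the length-shifted pair left out all 6 were called, beside 42.8% of all genes: Fcgr1 1.32, Fcgr4 1.21, Fcer1g 0.73, Fcgr3 -1.59, Fcgr2b -0.61 and Fcgrt -0.57 (adjusted p = 0.00011, edgeR).

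The response to tau in R47H/+ cells under MK-2206 had the same 3 genes higher and the same 2 lower, beside 14.3% and 11.3% of all genes. Fcgr1 rose 3.26-fold (log2 change 1.71, SE 0.147), Fcgr4 2.41-fold (1.27, SE 0.166) and Fcer1g 1.83-fold (0.87, SE 0.241), with adjusted p of 2.18e-07, 2.09e-05 and 0.0128 (edgeR). Fcgr3 fell by 1.19 and Fcgr2b by 0.51 on the log2 scale. Fcgrt had a change of -0.45 (adjusted p = 0.205, edgeR), which was -0.47 and called without both length-shifted libraries (adjusted p = 0.000146), when 6 of 6 were called beside 48% of all genes. The 3 tau comparisons share no library with each other, whereas the genotype and MK-2206 comparisons below share libraries with them and with each other.

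**Figure D3:**
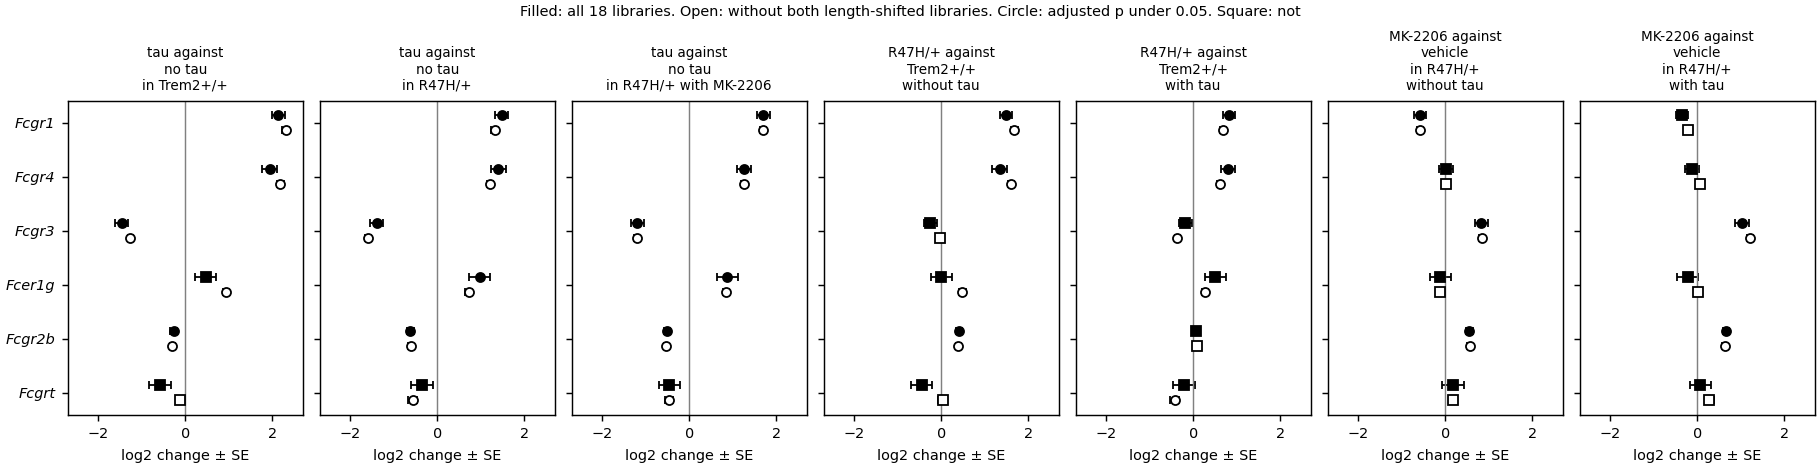
Log2 change and its SE for each gene (rows) in the 7 pairwise comparisons (panels); filled symbols use all 18 libraries and open symbols leave out both length-shifted libraries, circles mark an adjusted p under 0.05 and squares the rest. In each tau panel Fcgr1 and Fcgr4 lie right of 0 and Fcgr3 and Fcgr2b left of it; in both MK-2206 panels Fcgr3 and Fcgr2b lie right of 0.

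R47H/+ microglia were set against Trem2+/+ microglia first without tau. Fcgr1 was 2.80-fold higher (log2 change 1.49, SE 0.146, adjusted p = 2.28e-06, edgeR), Fcgr4 2.53-fold higher (1.34, SE 0.167, adjusted p = 2.84e-05) and Fcgr2b 1.33-fold higher (0.41, SE 0.0766, adjusted p = 0.00138). None of the 6 was lower by edgeR, by DESeq2 or at an unadjusted p under 0.05. Fcgr3 (-0.25, 95% interval -0.56 to 0.07), Fcer1g (0.01, -0.50 to 0.51) and Fcgrt (-0.45, -0.96 to 0.07) did not pass the test. These 3 of 6 higher stand beside 8.22% of all genes higher and 6.83% lower.

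Leaving out both length-shifted libraries gave 4 of 6 called, all higher, beside 28.9% of all genes: Fcgr1 1.68, Fcgr4 1.60, Fcer1g 0.48 (adjusted p = 5.83e-05, edgeR) and Fcgr2b 0.39. Fitted on the 2 groups alone, Fcgr2b lost its call (0.39, adjusted p = 0.157, edgeR).

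With tau on both sides, R47H/+ microglia had 1.77-fold more Fcgr1 (log2 change 0.83, SE 0.144, adjusted p = 0.00161, edgeR) and 1.75-fold more Fcgr4 (0.81, SE 0.164, adjusted p = 0.00493) than Trem2+/+ microglia. The other 4 were not called: Fcer1g had a log2 change of 0.51 (95% interval -0.00 to 1.01), Fcgr2b 0.06 (-0.10 to 0.22), Fcgr3 -0.18 (-0.50 to 0.13) and Fcgrt -0.21 (-0.73 to 0.31). Of all genes, 5.25% were higher and 4.24% lower. Leaving out the length-shifted pair, 5 of 6 were called, beside 23.3% of all genes, with Fcgr1 at 0.68, Fcgr4 at 0.62 and Fcer1g at 0.27 (adjusted p = 0.0134, edgeR), and with Fcgr3 at -0.36 (adjusted p = 0.000166) and Fcgrt at -0.42 (adjusted p = 0.00455).

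Whether the response to tau differed with genotype was tested as an interaction on the log2 scale. A negative value means a smaller fold rise or a larger fold fall in R47H/+ than in Trem2+/+. It does not describe the rise in CPM. Mean Fcgr1 went from 648 to 1806 CPM in R47H/+ and from 231 to 1018 CPM in Trem2+/+. None of the 6 was called by edgeR's quasi-likelihood test, 3 had an unadjusted p under 0.05, and DESeq2 called 2. Of all genes 2.05% were called higher and 3.32% lower. The values were -0.66 for Fcgr1 (95% interval -1.09 to -0.23, adjusted p = 0.0732, edgeR), -0.54 for Fcgr4 (-1.03 to -0.05, adjusted p = 0.183) and -0.35 for Fcgr2b (-0.58 to -0.12, adjusted p = 0.0728). DESeq2 called Fcgr1 (-0.64, adjusted p = 0.0365) and Fcgr2b (-0.33, adjusted p = 4.61e-06). By edgeR, leaving out Trem2+/+ replicate 3 gave calls of Fcgr1 (-0.81, adjusted p = 0.00183) and Fcgr4 (-0.75, adjusted p = 0.00508), leaving out R47H/+ tau replicate 2 a call of Fcgr1 (-0.80, adjusted p = 0.0305), and leaving out Trem2+/+ replicate 1 a call of Fcgr2b (-0.37, adjusted p = 0.049).

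When both length-shifted libraries were left out the interaction was called for 5 of 6, beside 11.9% of all genes: Fcgr1 -0.996 (adjusted p = 7.00e-07, edgeR), Fcgr4 -0.98 (adjusted p = 1.00e-07), Fcgrt -0.45 (adjusted p = 0.0425), Fcgr3 -0.33 (adjusted p = 0.0145) and Fcgr2b -0.31 (adjusted p = 0.0138). That fit had 2 libraries in Trem2+/+ and 2 in R47H/+ tau. Fcgr3 and Fcgrt had values of 0.07 and 0.23 with all libraries, so their direction depends on the length-shifted pair. Fcer1g had 0.50 with all libraries and -0.21 without the pair, called in neither, and was called higher with the gene length offset (0.35, adjusted p = 0.0286, edgeR).

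MK-2206 was tested in R47H/+ cells only. Without tau it raised Fcgr3 1.78-fold (log2 change 0.83, SE 0.150, adjusted p = 0.00648, edgeR) and Fcgr2b 1.47-fold (0.55, SE 0.0767, adjusted p = 0.000804). Fcgr1 fell by 0.58 on the log2 scale (SE 0.144, adjusted p = 0.0414). Fcgr4, Fcer1g and Fcgrt had changes of 0.02 (95% interval -0.33 to 0.37), -0.11 (-0.62 to 0.39) and 0.18 (-0.34 to 0.70). The 2 higher and 1 lower of 6 stand beside 1.19% and 1.36% of all genes. The call of Fcgr1 was the least stable of these: its adjusted p was 0.0634 with no count filter (edgeR) and above 0.05 when any 1 of 13 libraries was left out, up to 0.201 without R47H/+ replicate 1. The 13 were all but the Trem2+/+ libraries and R47H/+ tau replicates 1 and 2. Without both length-shifted libraries 3 of 6 were called, beside 13.9% of all genes, with Fcgr3 at 0.84, Fcgr2b at 0.56 and Fcgr1 at -0.57 (adjusted p = 3.01e-06, edgeR).

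After tau, MK-2206 again raised Fcgr3, 2.04-fold (log2 change 1.03, SE 0.150, adjusted p = 0.0011, edgeR), and Fcgr2b, 1.58-fold (0.66, SE 0.0768, adjusted p = 0.000165). By edgeR and by DESeq2 2 of 6 were higher and 0 lower, with 1 lower at an unadjusted p under 0.05, beside 1.64% of all genes higher and 1.40% lower. Fcgr1 had a change of -0.35 (95% interval -0.66 to -0.05, adjusted p = 0.240, edgeR) although its ranges did not overlap, Fcgr4 -0.12 (-0.47 to 0.22), Fcer1g -0.22 (-0.73 to 0.29) and Fcgrt 0.07 (-0.45 to 0.59). With the pair left out the same 2 genes were called, beside 12% of all genes, at 1.22 for Fcgr3 and 0.64 for Fcgr2b, while Fcgr1 was at -0.20 (adjusted p = 0.0813, edgeR). Without Trem2+/+ replicate 3 alone, Fcgr1 was called lower (-0.33, adjusted p = 0.0368).

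The interaction of MK-2206 with tau was called for none of the 6 by edgeR's quasi-likelihood test, with 0 at an unadjusted p under 0.05 and 0 by DESeq2. Of all genes 0.181% were called higher and 0.196% lower. The values lay between -0.14 for Fcgr4 (95% interval -0.63 to 0.35) and 0.23 for Fcgr1 (-0.20 to 0.66). Leaving out both length-shifted libraries, 2 of 6 were called higher, Fcgr3 at 0.38 (adjusted p = 0.00784, edgeR) and Fcgr1 at 0.37 (adjusted p = 0.0332), beside 4.94% of all genes.

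Since Fcgr2b opposes the activating receptors, the counts of each were also set against those of Fcgr2b within a library, which needs no scaling between libraries. The ratio of Fcgr1 to Fcgr2b was 2.28, 2.38 and 2.33 in R47H/+ MK-2206 tau, 4.12, 5.83 and 4.23 in R47H/+ tau and 2.68, 3.02 and 2.60 in Trem2+/+ tau libraries. Without tau it was 0.486, 0.499 and 0.519 in R47H/+ MK-2206, 1.18, 1.05 and 1.08 in R47H/+ and 0.417, 0.488 and 0.672 in Trem2+/+ libraries. MK-2206 libraries lay below the matching R47H/+ vehicle libraries in both tau states and did so for Fcgr4 as well, with Trem2+/+ and R47H/+ MK-2206 overlapping for Fcgr1 without tau.

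For Fcgr4 the mean ratio to Fcgr2b was 0.96 ± 0.0402 in R47H/+ MK-2206 tau, 1.66 ± 0.407 in R47H/+ tau and 0.983 ± 0.066 in Trem2+/+ tau (SD, n = 3 each). Without tau it was 0.28 ± 0.00387 in R47H/+ MK-2206, 0.405 ± 0.0227 in R47H/+ and 0.214 ± 0.0672 in Trem2+/+. The ratio of Fcgr3 to Fcgr2b was lower in every library with tau than in any without it, at means of 0.729, 0.567 and 0.667 in the same 3 tau groups and 1.17, 0.968 and 1.54 in the 3 groups without tau. These ratios are of counts and are not per length. With the length-shifted library of each group left out, an alternative chosen after seeing the data like those for shares and correlations below, the mean ratios were 4.18 for Fcgr1, 1.42 for Fcgr4 and 0.489 for Fcgr3 in R47H/+ tau, and 0.452, 0.175 and 1.30 in Trem2+/+ libraries (n = 2 each).

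**Figure D4:**
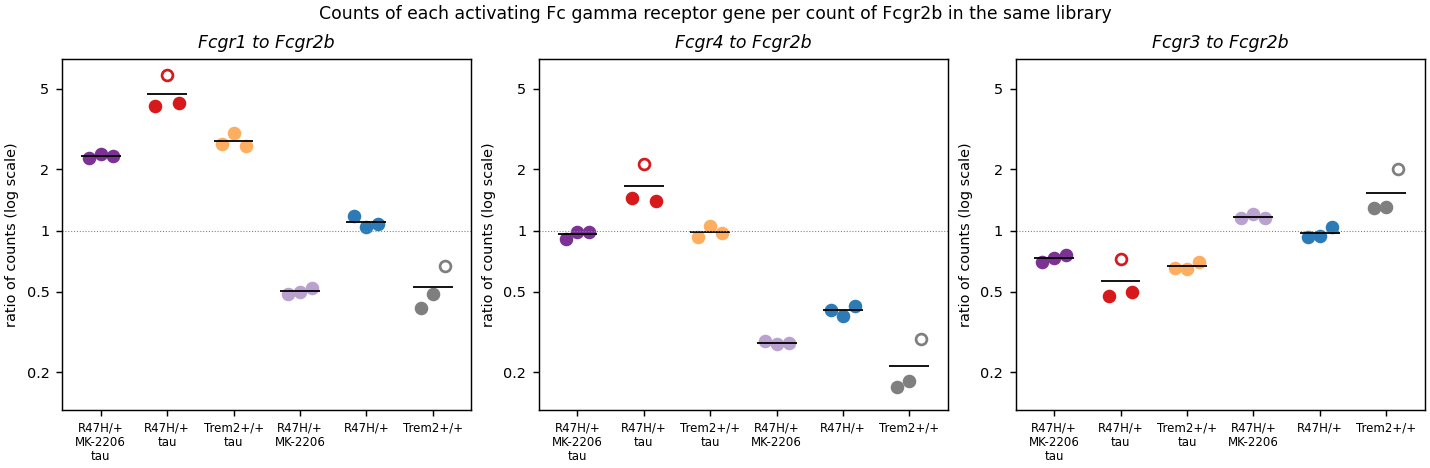
Counts of Fcgr1, Fcgr4 and Fcgr3 per count of Fcgr2b in the same library (log axis), by group; points are libraries, lines the mean of 3, open points the 2 length-shifted libraries, and the dotted line equal counts. Fcgr1 and Fcgr4 ratios are highest in R47H/+ tau, at means of 4.73 and 1.66, and the Fcgr3 ratio is highest in Trem2+/+, at 1.54.

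Per length, Fcgr1 made up 39.9% ± 0.569 of the 4 Fcgr genes in R47H/+ MK-2206 tau, 50.2% ± 0.754 in R47H/+ tau and 44.3% ± 1.55 in Trem2+/+ tau libraries (SD, n = 3 each). It made up 15.3% ± 0.562 in R47H/+ MK-2206, 28.8% ± 1.69 in R47H/+ and 14.2% ± 0.831 in Trem2+/+ libraries. Fcgr3 made up 18.6%, 8.93% and 16.0% in the tau groups in the same order, and 53.4%, 37.7% and 61.6% in the groups without tau. Fcgr2b made up 4.87% to 7.65% with tau and 11.7% to 13.7% without it. With the length-shifted libraries left out, Fcgr1 and Fcgr3 made up 50.4% and 8.79% in R47H/+ tau and 14.1% and 60.6% in Trem2+/+ libraries. The deposited length of Fcgr2b (5790 bases) joins the exons of several transcripts; with 1 transcript of 3544 bases, an alternative chosen after seeing the data, its mean shares were 7.52% to 11.3% with tau and at least 16.2% without it. With that length Fcgr1 stayed the leading Fcgr gene in the tau groups (36.2%, 47.5% and 40.6%) and Fcgr3 in those without tau (55.4%, 41.1% and 63.2%).

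Below the activating receptors, most of the 21 ITAM signalling genes listed, all tested, rose with tau. All genes had 14.4% higher and 12.1% lower in Trem2+/+, 15% and 12.6% in R47H/+, and 14.3% and 11.3% under MK-2206. In Trem2+/+ cells 13 rose and 1 fell (median log2 change 0.61, against -0.04 for all genes), in R47H/+ cells 12 rose and 2 fell (0.56, against 0.00), and in R47H/+ cells under MK-2206 12 rose and 0 fell (0.45, against -0.03). Rac2, a GTPase of the phagocytic cup, averaged 705 CPM in R47H/+ tau and 258 CPM in R47H/+ libraries (log2 change 1.45, SE 0.125, adjusted p = 2.75e-07, edgeR), and 555 CPM in Trem2+/+ tau and 255 CPM in Trem2+/+ libraries (1.12, adjusted p = 3.62e-06). The Src-family kinase Lyn, which phosphorylates ITAMs, rose by 0.75 in R47H/+ and by 0.73 in Trem2+/+ cells. Syk itself was not called, with changes of 0.11 in R47H/+ and 0.29 in Trem2+/+ cells. Tyrobp, the adaptor of Trem2, had changes of 0.03 in R47H/+ (adjusted p = 0.956, edgeR) and -0.87 in Trem2+/+ cells (adjusted p = 0.0591).

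Between genotypes without tau, 2 of 21 ITAM genes were higher and 1 lower in R47H/+, shares near the 8.22% higher and 6.83% lower of all genes. They were Lyn (0.50), the adaptor Lcp2 (0.44) and the adaptor Lat2 (-0.77, adjusted p = 0.000427, edgeR). With tau 2 were higher, Lyn (0.53) and Lcp2 (0.38, adjusted p = 0.0211, edgeR), and 0 lower, beside 5.25% and 4.24% of all genes. Fitted on the 2 groups alone, all 3 were lost without tau and Lcp2 with tau (adjusted p = 0.072, edgeR; 0.191 with no count filter). MK-2206 lowered 1 of 21, Lyn, without tau (-0.40, adjusted p = 0.0158, edgeR, and 0.322 with no count filter), beside 1.36% of all genes. It changed 0 in either direction with tau, beside 1.64% of all genes higher and 1.40% lower. There 2 were higher and 3 lower at an unadjusted p under 0.05, and 1 of each by DESeq2. Leaving out both length-shifted libraries gave 5 higher and 3 lower for genotype without tau and 3 and 2 with tau. Beside them 28.9% and 23.3% of all genes were called in either direction. For MK-2206 it gave 3 and 4 without tau and 2 and 0 with tau, beside 13.9% and 12% of all genes. For tau it gave 14 and 3 in Trem2+/+, 13 and 5 in R47H/+ and 14 and 4 under MK-2206. The shares of all genes were then 41.4%, 42.8% and 48%.

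Of the 8 inhibitory phosphatase and adaptor genes below Fcgr2b, 2 rose and 1 fell with tau in Trem2+/+. In R47H/+ 3 rose and 0 fell, and under MK-2206 4 rose and 0 fell. The shares of all genes were 14.4% and 12.1%, 15% and 12.6%, and 14.3% and 11.3% in the same order. Median log2 changes were 0.32, 0.32 and 0.25, against -0.04, 0.00 and -0.03 for all genes. Ptpn6, the phosphatase SHP-1, rose in all 3: it averaged 683 CPM in R47H/+ tau and 349.9 CPM in R47H/+ libraries (0.97, adjusted p = 5.34e-06, edgeR), with changes of 0.91 in Trem2+/+ and 1.16 under MK-2206. Inpp5d, the SHIP-1 phosphatase that binds the ITIM, was not called, with 0.48 in Trem2+/+ (adjusted p = 0.133, edgeR), -0.26 in R47H/+ (adjusted p = 0.424) and -0.00 under MK-2206 (adjusted p = 0.997). Dok2, an adaptor, was lower in R47H/+ (34.1 CPM) than in Trem2+/+ libraries (88.8 CPM; -1.38, adjusted p = 2.46e-05, edgeR). It was lower again with MK-2206, at 24.2 CPM against 45.9 CPM with tau (-0.92, adjusted p = 0.00698) and at 21.1 CPM against 34.1 CPM without tau (-0.69, adjusted p = 0.0389). For genotype without tau the list had 1 higher (Csk, 0.36, adjusted p = 0.018, edgeR, and 0.118 with no count filter) and 1 lower. All genes had 8.22% higher and 6.83% lower. With tau the list had 0 of either, beside 5.25% and 4.24% of all genes. There 1 was higher by DESeq2 and at an unadjusted p under 0.05. The counts without both length-shifted libraries were 4 and 1, 4 and 0, and 4 and 0 for tau in Trem2+/+, in R47H/+ and under MK-2206. Beside them 41.4%, 42.8% and 48% of all genes were called in either direction. For genotype the list had 2 and 1 without tau and 0 and 2 with tau, beside 28.9% and 23.3% of all genes. For MK-2206 it had 0 and 3 without tau and 0 and 1 with tau, beside 13.9% and 12%.

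The Fcer1g chain also pairs with C-type lectin receptors. Of 4 listed, 3 were tested, and Oscar had 15 counts in all libraries together. Clec4e (Mincle) rose with tau in all 3 settings, with 518 CPM in R47H/+ tau and 28.8 CPM in R47H/+ libraries (log2 change 4.17, SE 0.407, adjusted p = 1.08e-06, edgeR), 247 CPM in Trem2+/+ tau and 74.2 CPM in Trem2+/+ libraries (1.73, adjusted p = 0.00207), and 309 CPM in R47H/+ MK-2206 tau and 29.2 CPM in R47H/+ MK-2206 libraries (3.40). Its response to tau was larger in R47H/+ than in Trem2+/+, with an interaction of 2.43 (SE 0.514, adjusted p = 0.00924, edgeR). Clec4e (-1.36, adjusted p = 0.0188) and Clec4d (-1.12, adjusted p = 0.0209) were lower in R47H/+ than in Trem2+/+ without tau; fitted on the 2 groups alone neither was called (adjusted p = 0.184 and 0.273, edgeR), nor was Clec4e for tau in Trem2+/+ (0.0648). Without the length-shifted pair Clec4d was at -0.41 and still called. MK-2206 changed 0 of the 3 in either tau state by edgeR and by DESeq2, with 1 higher at an unadjusted p under 0.05 without tau. It raised 1.19% and lowered 1.36% of all genes without tau, and 1.64% and 1.40% with tau. Without the length-shifted pair the counts higher and lower were 1 and 0, 2 and 0, and 1 and 0 for tau in Trem2+/+, in R47H/+ and under MK-2206. Beside them 41.4%, 42.8% and 48% of all genes were called in either direction. For genotype the list had 0 and 2 without tau and 1 and 0 with tau, beside 28.9% and 23.3% of all genes. For MK-2206 it had 1 and 0 in each tau state, beside 13.9% and 12%.

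B2m, the partner of Fcgrt, averaged 7910.3 CPM in R47H/+ tau and 4593 CPM in Trem2+/+ tau libraries (0.78, adjusted p = 0.0438, edgeR), and 5613 CPM in R47H/+ and 2962 CPM in Trem2+/+ libraries (0.92, adjusted p = 0.0129). The call without tau was lost with the 2 groups fitted alone (adjusted p = 0.251, edgeR). Tau gave B2m changes of 0.63 in Trem2+/+ (adjusted p = 0.0545, edgeR), 0.50 in R47H/+ and 0.55 under MK-2206, none called with all libraries and each called higher without the length-shifted pair.

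Of 7 transcription factors known to act on Fc gamma receptor genes, 3 rose and 0 fell with tau in Trem2+/+. In R47H/+ 5 rose and 1 fell, and under MK-2206 4 rose and 1 fell. The shares of all genes were 14.4% and 12.1%, 15% and 12.6%, and 14.3% and 11.3% in the same order. Median log2 changes were 0.39, 0.72 and 0.45, against -0.04, 0.00 and -0.03 for all genes. Irf1 rose in all 3, by 1.32, 1.26 and 1.54 (adjusted p from 5.53e-07 to 5.60e-06, edgeR). Without tau 2 were higher and 1 lower in R47H/+ than in Trem2+/+, among them Irf1 (0.55, adjusted p = 0.0148, edgeR) and Cebpb (-1.01, adjusted p = 0.0161); fitted on the 2 groups alone neither was called (adjusted p = 0.264 and 0.250, edgeR), and without the length-shifted pair Cebpb was at -0.46 and still called. With tau only Irf1 was called (0.50, adjusted p = 0.0369, edgeR), and that call was lost with no count filter (adjusted p = 0.0796). For genotype all genes had 8.22% higher and 6.83% lower without tau, and 5.25% and 4.24% with tau. MK-2206 changed 0 of 7 in either tau state by edgeR and by DESeq2, with 1 lower at an unadjusted p under 0.05 without tau. It raised 1.19% and lowered 1.36% of all genes without tau, and 1.64% and 1.40% with tau. Without the length-shifted pair the counts higher and lower were 6 and 0, 5 and 1, and 6 and 1 for tau in the same 3 settings. Beside them 41.4%, 42.8% and 48% of all genes were called in either direction. For genotype the list had 3 and 1 without tau and 2 and 0 with tau, beside 28.9% and 23.3% of all genes. For MK-2206 it had 0 and 1 without tau and 0 and 0 with tau, beside 13.9% and 12%.

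The 8 interferon-stimulated genes listed as companions of Fcgr1 all rose with tau in each of the 3 settings, with median log2 changes of 3.81 in Trem2+/+, 1.90 in R47H/+ and 1.99 under MK-2206, where the medians of all genes lay between -0.04 and 0.00. Tau raised 14.4%, 15% and 14.3% of all genes in these settings. All 8 were higher in R47H/+ without tau (median 2.32) and 7 of 8 with tau (0.86), beside 8.22% and 5.25% of all genes. Irf7, an interferon regulatory factor, averaged 3834 CPM in R47H/+ tau and 2051 CPM in Trem2+/+ tau, and 1272 CPM in R47H/+ and 117 CPM in Trem2+/+ libraries. MK-2206 lowered 1 of 8 without tau, Gbp4 (-1.09, adjusted p = 0.00279, edgeR), and 0 with tau, beside 1.36% and 1.40% of all genes. At an unadjusted p under 0.05, 6 were lower without tau and 1 with tau, and DESeq2 called 5 and 0. Without both length-shifted libraries 7 were lower without tau and 1 with tau, beside 13.9% and 12% of all genes in either direction. The tau and genotype counts were then 8 higher of 8 in each comparison, beside 23.3% to 48% of all genes. The genotype interaction with tau was negative and called in 5 of 8 (median -1.74), beside 3.32% of all genes. Without both length-shifted libraries it was negative and called in 7 of 8, beside 11.9% of all genes in either direction.

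Among the 6 genes, log2 CPM over the 18 libraries correlated at Pearson r = 0.974 between Fcgr1 and Fcgr4, 0.851 between Fcgr1 and Fcer1g, 0.805 between Fcgr3 and Fcgr2b and -0.733 between Fcgr1 and Fcgr3. Over the 16 libraries without the length-shifted pair these values were 0.967, 0.972, 0.887 and -0.69. The points share the 6 groups, so the values describe the order of groups as much as single libraries. Of 9883 other genes searched, those most like Fcgr1 were Igtp (0.995), Il18bp (0.994), Isg20 (0.993) and Mthfd2 (0.992), and those most like Fcgr4 were Cst7 (0.993), H2-Q7 (0.992), Usp18 (0.992) and Ifitm6 (0.990). Fcgr3 was most like Pink1 (0.974), Pkdcc (0.967), Atp6v0d2 (0.963) and Adipor1 (0.960), and Fcgr2b most like Mgll (0.958), Cxcr4 (0.949), Kif3a (0.948) and Tbc1d15 (0.944). Fcer1g was most like Psme1 (0.989), Psmb10 (0.986), Snx20 (0.983) and Cd52 (0.982), and Fcgrt most like Rabac1 (0.971), Polr2e (0.961), Pithd1 (0.961) and Kctd2 (0.961). Without the length-shifted pair the r of these same genes was 0.991 to 0.994 for Fcgr1, 0.991 to 0.993 for Fcgr4, 0.959 to 0.971 for Fcgr3, 0.952 to 0.958 for Fcgr2b, 0.979 to 0.99 for Fcer1g and 0.901 to 0.926 for Fcgrt.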

How the data were processed

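RNA of primary microglia was sequenced as paired reads of 150 bases in 18 libraries. Per the submitters' processing notes, the authors used STAR, featureCounts and DESeq2 on GRCm38 (mm10), with no versions or settings given. The authors deposited 1 table of whole-number, unscaled counts for each gene, with gene coordinates and length. Strand handling is not given in the sources used here. Counts were fitted in R 4.3.3 with edgeR 4.0.16 (filterByExpr, TMM, 1 term per group over 18 libraries, 12 residual degrees of freedom, two-sided quasi-likelihood F-test) and adjusted by Benjamini-Hochberg over 13267 genes at 0.05; DESeq2 1.42.0 was run as a check. CPM is TMM-scaled, with a prior count of 2 on the log2 scale. No permutation test was run, since 3 libraries against 3 give an exact p of at least 0.1. The fit was tested on simulated data. The settings varied were the scaling (RLE), the count filter, the tool, the groups in the fit, a replicate block, a gene length offset, and the libraries left out, singly or both length-shifted ones. Replicates differed beyond counting error (chi-square per gene 3.48 to 293).

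The 6 genes, the 7 pathway lists (62 genes), the 11 marker lists and the rules were chosen with earlier results of these data known. Of each list and comparison, up to 3 called genes with the smallest p could be named, and for each Fc receptor gene the 4 genes with the highest Pearson correlation among those with mean log2 CPM of at least 1. Values of Syk, Tyrobp and Inpp5d, and of B2m under tau, were chosen outside that rule. Some members of these lists are not reported here by name.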

Additional observations from a re-analysis of the deposited data

Results flagged for a closer look

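Among the listed genes of the pathway, the response to tau differed between R47H/+ and Trem2+/+ by the interaction test of edgeR for 11 genes. Of these, 9 fell under the naming rule. Over all genes 2.05% were called higher and 3.32% lower. A positive value means a more positive log2 change with tau in R47H/+ than in Trem2+/+. The direction can differ between genotypes. In Trem2+/+ and in R47H/+ the changes were -0.82 and 0.74 for Clec4d and -0.12 and 1.37 for Cebpb. They were -0.26 and 0.77 for Lat2 and -0.74 and 0.43 for Dok2. Not all of these changes were called. Interaction values were 2.43 for Clec4e and 1.55 for Clec4d, C-type lectin receptors that pair with the Fcer1g chain, and 1.48 for the transcription factor Cebpb. Without both length-shifted libraries Clec4d was at 0.62 and Cebpb at 0.77, both called. The adaptors Lat2 and Dok2 had 1.03 and 1.17. The interferon-stimulated genes Gbp4, Irf7 and Ly6e had -3.74, -2.54 and -1.64, with Ifit3 at -2.07 and Gbp2 at -1.84, named here after their values were seen, and the intracellular antibody receptor Trim21 had -0.54. The calls of Clec4d, Cebpb and Trim21 were lost with the 4 groups fitted alone (adjusted p = 0.172, 0.116 and 0.125, edgeR). The response of Gbp4 to tau in R47H/+ cells was larger under MK-2206 than under vehicle, with an interaction of 1.33 (adjusted p = 0.0272, edgeR). That call was lost when any 1 of 11 libraries was left out (adjusted p up to 0.106, edgeR).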

How the results depend on the processing

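Every change called with all 18 libraries, for the 6 Fc receptor genes and for the 92 calls of listed genes, kept its direction under every alternative run. Without both length-shifted libraries 5 Fc receptor genes were called for R47H/+ against Trem2+/+ with tau (2 with all libraries), 5 for the genotype interaction with tau (0) and 2 for the MK-2206 interaction (0). The genotype interaction had 2 by DESeq2, 4 with the gene length offset (Fcgr1, Fcgr4 and Fcgr2b lower and Fcer1g higher) and 0 to 2 when single libraries were left out. With that offset Fcgr3 was called lower in R47H/+ than in Trem2+/+ without tau (-0.23, adjusted p = 0.0481, edgeR). Of the 92 listed calls, 21 were lost when some single library was left out, 19 with the compared groups alone, 8 with no count filter, 0 by DESeq2 and 0 without both length-shifted libraries. The least stable were Clec4d for the genotype interaction (lost without any of 15 libraries) and B2m for genotype with tau (any of 14).

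Libraries with the same number did not deviate together (correlations -0.143 to 0.201, no comparison having all pairs over 0.1), so the numbers were not taken as pairs. The fit with a replicate block ended 1 Fc receptor call, Fcgr1 under MK-2206 without tau (adjusted p = 0.0675, edgeR), and 5 listed calls: Dok2 under MK-2206 without tau (0.0585), B2m (0.0625) and Irf1 (0.0519) for genotype with tau, Clec4d for the genotype interaction (0.0721) and Gbp4 for the MK-2206 interaction (0.0659).

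Signs turned only in Fc receptor changes that were not called with all libraries. For R47H/+ against Trem2+/+ without tau, Fcer1g was -0.0111 with RLE scaling, -0.0112 by DESeq2, -0.0225 with the groups alone and -0.214 to 0.46 with single libraries left out, and Fcgrt was 0.0314 without both length-shifted libraries and -0.668 to 0.0107 with single ones left out. Leaving out both gave, for MK-2206 with tau, Fcgr4 0.0688 and Fcer1g 0.021; for the genotype interaction, Fcgr3 -0.325, Fcer1g -0.211 and Fcgrt -0.45; and for the MK-2206 interaction, Fcgr4 0.0404, Fcer1g 0.129 and Fcgrt 0.094. Leaving out single libraries gave, for MK-2206 without tau, Fcgr4 -0.00494 to 0.0343; for MK-2206 with tau, Fcgr4 -0.222 to 0.0669, Fcer1g -0.327 to 0.0188 and Fcgrt -0.0317 to 0.278; for the genotype interaction, Fcgr3 -0.109 to 0.17 and Fcgrt -0.207 to 0.461; and for the MK-2206 interaction, Fcgr4 -0.243 to 0.0467, Fcer1g -0.211 to 0.135 and Fcgrt -0.209 to 0.101. The cause was not tested.

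Counts over all genes, in the order genotype without tau, tau in Trem2+/+, tau in R47H/+, genotype with tau, MK-2206 without tau, MK-2206 with tau, tau under MK-2206, genotype interaction and MK-2206 interaction, were 1997, 3519, 3667, 1260, 338, 403, 3393, 713 and 50. Without both length-shifted libraries they were 3907, 5589, 5773, 3141, 1878, 1620, 6475, 1610 and 667. With the length offset, 6 moved by over 1.5 times: genotype to 3467 without and 2432 with tau, MK-2206 to 574 and 1153, and the interactions to 2839 and 209. With the groups alone, genotype without tau had 474, tau in Trem2+/+ 1311, MK-2206 2236 without and 220 with tau, tau under MK-2206 6225, and the interactions 360 and 187. DESeq2 gave 583 and 750 for MK-2206 and 1194 and 216 for the interactions. For MK-2206 with tau, no count filter gave 236 and the block 249, and the MK-2206 interaction had 21 with the block. Leaving out single libraries gave 1295 to 2975, 2640 to 4188, 2686 to 5856, 629 to 3469, 138 to 857, 150 to 1729, 2709 to 5079, 471 to 1537 and 9 to 313 in the first order. Of these 9 highest counts, 7 came without Trem2+/+ replicate 3.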

Other observations

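Other receptors that bind immunoglobulin, chosen with earlier results of these data known, were mostly low in these microglia. Of 13 listed, 6 were tested, Fcrla had 123 counts in all libraries together, and Fcer1a, Ms4a2, Fcer2a, Fcmr, Fcamr and Pigr had 0. Fcrl5 averaged 1.47 CPM in R47H/+ tau and 0.0739 CPM in R47H/+ libraries. With tau 2 of the 6 rose and 1 fell in Trem2+/+ and in R47H/+, and 3 rose and 1 fell under MK-2206, beside 14.4% and 12.1%, 15% and 12.6%, and 14.3% and 11.3% of all genes in these settings. Of the same 6, 3 were higher in R47H/+ than in Trem2+/+ without tau and 4 with tau, with 0 lower, beside 8.22% and 5.25% of all genes higher. MK-2206 raised 1 and lowered 2 without tau, beside 1.19% and 1.36% of all genes, and changed 0 with tau (edgeR and DESeq2, with 1 higher and 2 lower at an unadjusted p under 0.05). With the 2 length-shifted libraries left out, 7 of the 13 were tested. The counts higher and lower were then 2 and 2, 3 and 2, and 3 and 1 for tau. For genotype 3 were higher without tau and 4 with tau, and for MK-2206 the counts were 1 and 3 without tau and 0 and 1 with tau. Of all genes 41.4%, 42.8% and 48% were then called for tau, 28.9% and 23.3% for genotype, and 13.9% and 12% for MK-2206, in either direction.

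Trim21, a receptor for antibodies inside cells, averaged 115 CPM in R47H/+ tau and 51.1 CPM in R47H/+ libraries (log2 change 1.17, adjusted p = 1.42e-07, edgeR). It averaged 84.8 CPM in Trem2+/+ tau and 25.8 CPM in Trem2+/+ libraries (1.71, adjusted p = 1.50e-09), and it rose by 1.56 under MK-2206. It was higher in R47H/+ than in Trem2+/+ without tau (0.98, adjusted p = 2.02e-06, edgeR) and with tau (0.44, adjusted p = 0.00689; 0.107 with no count filter). MK-2206 lowered it without tau (-0.47, adjusted p = 0.0134, but not called with no count filter).

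Fcrls, an Fc receptor-like gene known from mouse microglia, was lower with tau in both genotypes under vehicle. It averaged 60.6 CPM in R47H/+ tau and 98.6 CPM in R47H/+ libraries (-0.70, adjusted p = 0.00794, edgeR), and 29.4 CPM in Trem2+/+ tau and 44.2 CPM in Trem2+/+ libraries (-0.58, adjusted p = 0.0261; -0.32 and called without both length-shifted libraries). Under MK-2206 it averaged 41.5 CPM with tau and 42.3 CPM without it (-0.03, adjusted p = 0.939, edgeR). It was higher in R47H/+ than in Trem2+/+ in both states (1.16 without tau and 1.04 with tau), and MK-2206 lowered it to 42.3 CPM without tau (-1.22, adjusted p = 0.00139). With only the compared groups in the fit, its calls for tau in Trem2+/+ (adjusted p = 0.202) and for genotype without tau (0.0649) were lost. Fcrl1 averaged 23.6 CPM in R47H/+ and 11.5 CPM in Trem2+/+ libraries (1.04, adjusted p = 0.000176, edgeR), and Fcrlb 5.81 CPM in R47H/+ MK-2206 and 1.76 CPM in R47H/+ libraries (1.71, adjusted p = 0.00215).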
